A study of Homo sapiens and Mus musculus with 28 samples.

Results

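The 10 genes described here encode proteins that bind RNA carrying N6-methyladenosine (m6A), the most common internal mark of mRNA: YTHDF1, YTHDF2, YTHDF3, YTHDC1, YTHDC2, IGF2BP1, IGF2BP2, IGF2BP3, HNRNPA2B1 and HNRNPC. Their rows were found by gene symbol, with no cut on a measured value, but the list was chosen with earlier results of these data known. They are 10 of the 35135 gene IDs counted in 24 RNA sequencing libraries of SCC1. SCC1 is an established human head and neck squamous cell carcinoma line. The series is about REXO4, an RNA exonuclease, and m6A-marked R-loops in this cancer. The libraries fell into 8 groups of 3, written here as the labels give them. In a knockout experiment of 15 libraries, Ctrl Vehicle held control cells, R4KO_1 Vehicle and R4KO_2 Vehicle held REXO4-knockout cells, and KO_2 H151 and KO_2 BX_795 held cells labelled KO_2 given H151, an inhibitor of the innate immune adaptor STING, or BX_795, an inhibitor of the kinase TBK1 and of other kinases. In an iR4 experiment of 9 libraries, the groups were Vehicle, iR4 and H151_iR4. The sources used here do not give doses, times or how the knockouts were made. They also do not say whether a knockout is a clone or a pool, or what iR4 stands for. Cells labelled KO_2 were taken to be those of R4KO_2, an assumption that the labels do not state.

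A methyltransferase complex around METTL3 and METTL14 writes m6A, the demethylases FTO and ALKBH5 can remove it, and reader proteins carry its effect on the transcript. The YTHDF proteins read the mark through a YTH domain in the cytoplasm, where YTHDF2 recruits the CCR4-NOT deadenylase and shortens transcript life; YTHDC1 is the nuclear YTH reader, acting in splicing and export, and YTHDC2 is an RNA helicase best known from meiosis. IGF2BP1, IGF2BP2 and IGF2BP3 stabilise client transcripts such as MYC and are often raised in carcinomas. HNRNPC and HNRNPA2B1 are abundant nuclear RNA-binding proteins that are thought to sense m6A indirectly, through the change it makes to RNA structure.

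Total counts ran from 16.04 M to 27.94 M per library, and the KO_2 H151 and KO_2 BX_795 libraries were deeper (21.36 M to 27.94 M) than those of R4KO_2 Vehicle (17.53 M to 17.67 M). Levels are given as CPM (a count relative to the size of its library) after TMM scaling, which adjusts each library so that most genes do not shift. REXO4 itself, the targeted gene, had 73.9 ± 3.19 CPM in the controls (mean ± SD, n = 3), against 9.39 ± 0.341 for R4KO_1 and 6.30 ± 1.17 for R4KO_2. Drug-treated KO_2 cells held more than R4KO_2, with 17.9 ± 1.53 for H151 and 18.9 ± 0.441 for BX_795. In the other experiment it stood at 96.2 ± 3.53 in Vehicle, 61.4 ± 2.88 in iR4 and 91.6 ± 2.28 in H151_iR4. All 7 squamous markers were present in every group (KRT5 from 335 to 941 CPM, TP63 from 83.7 to 318), and immune and endothelial markers stayed at or below 0.631 CPM. COL1A1 was at 21.4 to 46.2 CPM, whereas COL1A2 and DCN, which fibroblasts also express, stayed at or below 0.263. Replicates of a group differed by 1.66 to 10.42 times the sampling noise, so no library was counted as a duplicate. The labels do not say whether replicates are separate cultures, so p-values may measure only technical spread between libraries. In such bulk RNA, fewer cells of a kind and less RNA per cell cannot be told apart.

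All 10 members passed the filter on low counts in both experiments. In Ctrl Vehicle the 2 hnRNP readers were far above the rest per kilobase of annotated exon, HNRNPA2B1 at 210 and HNRNPC at 137 CPM per kb. YTHDF2 followed at 44.1 and YTHDF1 at 29.7. YTHDC1 (18.5), YTHDF3 (17.4) and IGF2BP2 (16.2) lay close together, and YTHDC2 (8.07), IGF2BP3 (7.61) and IGF2BP1 (6.28) were lowest on this scale. These levels count all reads of a gene and take the whole annotated exon length, so they order transcripts only roughly.

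**Figure D1:**
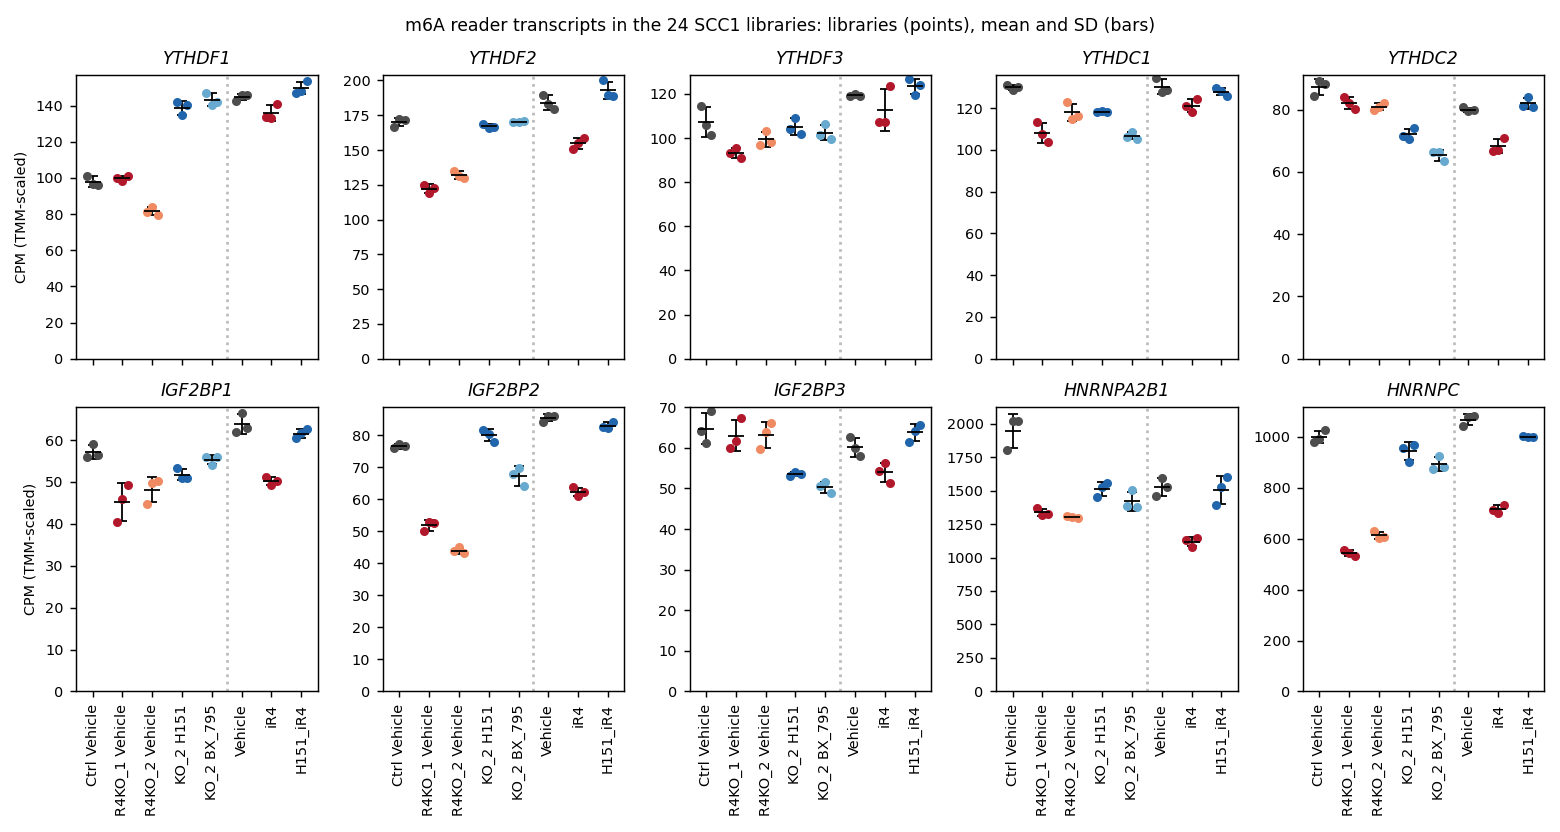
TMM-scaled CPM of the 10 reader genes (y axis, from 0) in each of the 8 SCC1 groups (x axis); points are libraries, bars are mean and SD of 3, and the dotted line divides the knockout experiment from the iR4 experiment. HNRNPC falls from 978 to 1027 CPM in Ctrl Vehicle to 531 to 557 in R4KO_1, while IGF2BP3 lies within 59.7 to 69.0 CPM in Ctrl Vehicle and both vehicle-treated knockouts.

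Bases upstream of the transcription start are shown for 2 sets of genes whose levels moved together over the libraries, as given further on: HNRNPC, YTHDF2 and IGF2BP2, and then YTHDC2 and IGF2BP3. The sequences are from RefSeq (GRCh38.p14), read 5′ to 3′ on the strand of the gene, cut to the bases before the outermost annotated start. Capitals mark matches on either strand to the CCAAT box (CCAAT), the GC box (GGGCGG) and the E-box (CACGTG), which may overlap. The windows are chr14:21269495-21269692 (minus strand) for HNRNPC, chr1:28736374-28736620 (plus) for YTHDF2, chr3:185825057-185825292 (minus) for IGF2BP2, chr5:113513444-113513682 (plus) for YTHDC2 and chr7:23470492-23470741 (minus) for IGF2BP3.
HNRNPC: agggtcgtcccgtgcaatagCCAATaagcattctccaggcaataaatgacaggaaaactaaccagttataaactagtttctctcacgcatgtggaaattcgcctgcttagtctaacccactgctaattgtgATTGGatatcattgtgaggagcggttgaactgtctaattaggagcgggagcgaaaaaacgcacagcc
YTHDF2: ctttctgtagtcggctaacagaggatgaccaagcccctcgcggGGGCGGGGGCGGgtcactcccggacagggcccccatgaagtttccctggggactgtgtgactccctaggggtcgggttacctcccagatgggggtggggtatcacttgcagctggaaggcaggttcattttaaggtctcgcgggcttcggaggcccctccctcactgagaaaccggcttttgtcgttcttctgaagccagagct
IGF2BP2: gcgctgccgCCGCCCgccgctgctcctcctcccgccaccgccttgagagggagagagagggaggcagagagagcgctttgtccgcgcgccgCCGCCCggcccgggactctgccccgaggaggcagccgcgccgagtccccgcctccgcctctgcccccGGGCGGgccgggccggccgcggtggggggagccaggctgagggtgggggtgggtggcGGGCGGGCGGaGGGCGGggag
YTHDC2: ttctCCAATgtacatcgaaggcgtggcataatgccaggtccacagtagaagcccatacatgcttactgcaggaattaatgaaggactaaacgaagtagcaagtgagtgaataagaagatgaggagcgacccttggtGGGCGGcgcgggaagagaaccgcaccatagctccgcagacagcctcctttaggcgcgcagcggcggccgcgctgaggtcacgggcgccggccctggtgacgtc
IGF2BP3: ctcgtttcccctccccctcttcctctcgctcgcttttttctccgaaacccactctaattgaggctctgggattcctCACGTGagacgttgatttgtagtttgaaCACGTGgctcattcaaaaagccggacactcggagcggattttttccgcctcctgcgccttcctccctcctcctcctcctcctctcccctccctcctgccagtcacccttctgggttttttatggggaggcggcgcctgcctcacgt
The printed bases of the 3 genes that moved together do not look alike, though their full windows, described below, share motifs. The HNRNPC window of 198 bases was 44.9% G and C with 2 CCAAT boxes, the YTHDF2 window of 247 bases was 61.1% with 2 GC boxes, and the IGF2BP2 window of 236 bases was 81.4% with 6 GC boxes. Upstream of IGF2BP3 stood 2 E-boxes, the motif that MYC and its relatives bind, and upstream of YTHDC2 stood 1 CCAAT box and 1 GC box. Full windows of 250 bases before a RefSeq start were found for 8 of the 10 members and not for YTHDF3 and IGF2BP1, and numbered 10, since YTHDF2 and IGF2BP2 have 2 starts each. The E-box was in 2 of these 10 windows (IGF2BP3 and YTHDF1) and in 6.3% of 35116 such windows over all genes. The GC box was in 7 of 10 and 42.6%, the CCAAT box in 5 of 10 and 32.0%, and the ETS core CCGGAAG in 0 of 10 and 8.5%. Over their full windows, HNRNPC, YTHDF2 and IGF2BP2 each had both a GC box and a CCAAT box, as did YTHDC2. Neither the second starts of YTHDF2 and IGF2BP2 nor the bases cut at the outermost annotated start are printed above. A motif counted here, such as the GC box of HNRNPC, therefore need not be among the capitals. Matches describe the letters only.

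The first comparisons asked how reader transcripts differ when REXO4 is lost or when cells are labelled iR4. In R4KO_1, 7 of the 10 readers fell and 0 rose (edgeR's quasi-likelihood test, Benjamini-Hochberg adjusted p under 0.05 over all genes), where 31.4% of all genes tested fell and 33.0% rose. In R4KO_2, 8 fell and 0 rose, against 32.2% and 34.0% of all genes. In iR4, 9 fell and 0 rose, against 34.8% and 37.1%. Since the list was chosen with earlier results of these data known, these counts are descriptions only. The median log2 fold change of the 10 was -0.29 in R4KO_1, -0.25 in R4KO_2 and -0.23 in iR4, while the median of all genes was 0.02 in each of the 3 comparisons. Both knockouts were set against the same 3 control libraries, so these 2 comparisons are not independent. The iR4 comparison has its own control. Where 2 groups of 3 libraries are said below not to overlap, this describes levels only. The share of all genes without overlap was not counted for such groups. YTHDC2 in R4KO_1, which was not called (edgeR adjusted p = 0.0941), did not overlap the controls either.

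HNRNPC (ENSG00000092199; chromosome 14, 21209136 to 21269494, minus strand of GRCh38), which packages nascent transcripts and binds uridine tracts, fell the most of the 10 in R4KO_1 and in iR4. Its levels were 978, 992 and 1027 CPM in the Ctrl Vehicle libraries, 557, 544 and 531 in R4KO_1, and 628, 604 and 605 in R4KO_2. All 6 knockout libraries lay far below the lowest control library. Its log2 fold change was -0.87 ± 0.036 (SE, n = 3 against 3) in R4KO_1, a fall of 45.2% (edgeR adjusted p = 1.34e-14), and -0.70 ± 0.036 in R4KO_2 (adjusted p = 2.34e-13). In the iR4 experiment the Vehicle libraries held 1041, 1077 and 1080 CPM and the iR4 libraries 711, 701 and 732, again with no overlap. That gave a log2 fold change of -0.57 ± 0.030 (edgeR adjusted p = 1.3e-14).

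HNRNPA2B1 (ENSG00000122566; chromosome 7, 26173057 to 26201529, minus strand), which also sorts RNA and helps process primary microRNAs, was the most abundant reader transcript. It stood at 1800, 2020 and 2017 CPM in Ctrl Vehicle, at 1367, 1319 and 1322 in R4KO_1, and at 1311, 1305 and 1297 in R4KO_2. The knockout libraries did not overlap the controls and lay close to one another. It fell by 30.9% in R4KO_1 (log2 fold change -0.53 ± 0.042, edgeR adjusted p = 2.84e-10) and fell by 32.85% in R4KO_2 (log2 fold change -0.57 ± 0.042, edgeR adjusted p = 7.1e-11). In iR4 it stood at 1130, 1080 and 1144 CPM against 1462, 1595 and 1528 in Vehicle, a log2 fold change of -0.45 ± 0.041 (edgeR adjusted p = 4.53e-10). Its exons share 368 bases (3.97% of their length) with CBX3 on the opposite strand, and the sources used here do not give the strand setting of the counting.

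Among the cytoplasmic readers, YTHDF2 (ENSG00000198492; chromosome 1, 28736621 to 28769775, plus strand), the one best known for driving decay, fell in all 3 comparisons. Control libraries held 167, 172 and 172 CPM of it, R4KO_1 libraries 125, 119 and 123, and R4KO_2 libraries 135, 131 and 130. The log2 fold change was -0.47 ± 0.035 in R4KO_1 and -0.36 ± 0.035 in R4KO_2 (edgeR adjusted p = 1.6e-10 and 6.75e-09). Neither knockout overlapped the controls. In the iR4 experiment it went from 190, 183 and 180 CPM in Vehicle to a mean of 155 ± 3.97 in iR4 (SD, n = 3), where the higher libraries held 154.8 and 159.0, with no overlap. This was a log2 fold change of -0.24 ± 0.036 (edgeR adjusted p = 1.27e-06). The change in iR4 was smaller than in R4KO_1 by a test of the difference itself, 0.23 ± 0.049 on the log2 scale (edgeR adjusted p = 0.000453), where 35.0% of all genes differed between these effects.

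YTHDF3 (ENSG00000185728; chromosome 8, 63168553 to 63212786, plus strand), which shares targets with both other YTHDF proteins, changed little. It stood at 115, 106 and 102 CPM in Ctrl Vehicle and at 93.4, 95.3 and 90.7 in R4KO_1, and fell there with a log2 fold change of -0.19 ± 0.048 (edgeR adjusted p = 0.00125). In R4KO_2 it lay just short of the threshold (96.9, 103 and 98.4 CPM; -0.11 ± 0.048, edgeR adjusted p = 0.0555) and was called lower with RLE factors, no filter or the replicate block (adjusted p = 0.0452, 0.0485 and 0.0437) and without Ctrl Vehicle replicate 3 or R4KO_2 replicate 2 (0.017 and 0.0362). In iR4 it did not pass, and 1 library stood apart: iR4 held 107, 107 and 124 CPM against 119, 120 and 119 in Vehicle (log2 fold change -0.08 ± 0.045, edgeR adjusted p = 0.129). Without iR4 replicate 3, the high library, it passed with -0.15 (edgeR adjusted p = 0.00145). Scaling by library totals alone ends the call in R4KO_1, with an edgeR adjusted p of 0.405. It also turns the values to 0.06 in R4KO_2 and 0.08 in iR4, neither of them called.

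YTHDF1 (ENSG00000149658; chromosome 20, 63195429 to 63216234, minus strand), known for promoting translation, set the 2 knockouts apart. It was at 101, 96.6 and 96.1 CPM in Ctrl Vehicle and at 100, 98.4 and 101 in R4KO_1, with overlapping libraries (log2 fold change 0.04 ± 0.040, edgeR adjusted p = 0.424). In R4KO_2 it was at 81.4, 83.9 and 79.4 CPM, below every control library (-0.26 ± 0.041, edgeR adjusted p = 6.93e-06). Set directly against R4KO_1, R4KO_2 differed by -0.30 ± 0.040 in log2 (edgeR adjusted p = 6.91e-06). With library totals alone, the R4KO_1 value became 0.18 and was called higher (edgeR adjusted p = 0.00037), and the R4KO_2 value shrank to -0.09 (adjusted p = 0.0505). In iR4 it passed narrowly, at 134, 133 and 141 CPM against 143, 146 and 146 in Vehicle (-0.08 ± 0.035, edgeR adjusted p = 0.0351), and the sign turned to 0.07 with library totals alone. Upper-quartile factors (adjusted p = 0.275) and leaving out iR4 replicate 1 or 2, or Vehicle replicate 2 or 3 (adjusted p from 0.0747 to 0.116), also ended that call.

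The nuclear reader YTHDC1 (ENSG00000083896; chromosome 4, 68310387 to 68350089, minus strand), which binds methylated chromatin-associated RNA as well as pre-mRNA, fell in both knockouts. Ctrl Vehicle libraries held 131, 129 and 130 CPM, R4KO_1 libraries 113, 108 and 104, and R4KO_2 libraries 123, 115 and 116. No knockout library reached the lowest control. In log2 the change was -0.26 ± 0.040 in R4KO_1 (edgeR adjusted p = 8.78e-06) and -0.14 ± 0.040 in R4KO_2 (edgeR adjusted p = 0.00473), where it turned to 0.03 with scaling by library totals alone. In iR4, levels of 121, 118 and 124 CPM stood against 135, 128 and 129 in Vehicle (-0.10 ± 0.036, edgeR adjusted p = 0.016). That call was lost with upper-quartile factors (adjusted p = 0.146) and without iR4 replicate 2 or Vehicle replicate 1 (adjusted p = 0.065 and 0.0833), and the sign turned to 0.05 with library totals alone.

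YTHDC2 (ENSG00000047188; chromosome 5, 113513683 to 113595285, plus strand), the helicase, passed the test in R4KO_2 and iR4 and not in R4KO_1. It was at 84.3, 89.3 and 88.2 CPM in Ctrl Vehicle, 84.0, 82.1 and 80.2 in R4KO_1 and 79.9, 80.8 and 82.2 in R4KO_2. R4KO_1 did not pass the test (log2 fold change -0.08 ± 0.041, edgeR adjusted p = 0.0941). R4KO_2 passed it narrowly at -0.11 ± 0.041 (edgeR adjusted p = 0.0254), with the sign turning to 0.06 by library totals alone. That call was also lost with upper-quartile factors or no filter (edgeR adjusted p = 0.15 and 0.0607) and without Ctrl Vehicle replicate 2 or 3 or R4KO_2 replicate 1 or 2 (adjusted p from 0.0598 to 0.075). In iR4, 66.6, 67.1 and 70.8 CPM stood below 80.7, 79.4 and 79.8 in Vehicle (-0.23 ± 0.039, edgeR adjusted p = 1.55e-05). With library totals alone this call was lost as well (-0.07, edgeR adjusted p = 0.104). Tested directly, the iR4 effect minus the R4KO_1 effect was -0.14 ± 0.054 (edgeR adjusted p = 0.0434), a call lost under 12 of 19 alternatives, and minus the R4KO_2 effect it was -0.12 ± 0.054 and not called (adjusted p = 0.122).

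The IGF2BP family split by member. IGF2BP2 (ENSG00000073792; chromosome 3, 185643739 to 185825056, minus strand), the member most often linked to metabolism, fell furthest, from 75.9, 77.3 and 76.5 CPM in Ctrl Vehicle to 50.02, 53.0 and 52.6 in R4KO_1 and 43.7, 45.0 and 43.1 in R4KO_2. The 3 groups were fully separate, with R4KO_2 lowest. Its change in log2 was -0.55 ± 0.045 in R4KO_1 (edgeR adjusted p = 6.11e-10) and -0.80 ± 0.046 in R4KO_2 (edgeR adjusted p = 1.66e-12), and R4KO_2 differed from R4KO_1 by -0.25 ± 0.047 (edgeR adjusted p = 0.000369). In iR4 it was at 63.7, 61.0 and 62.1 CPM against 84.3, 86.1 and 86.1 in Vehicle (-0.45 ± 0.038, edgeR adjusted p = 8.42e-11). The fall in iR4 was smaller than in R4KO_2 by 0.34 ± 0.057 (edgeR adjusted p = 5.43e-05), and 20.3% of all genes differed between these effects.

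IGF2BP1 (ENSG00000159217; chromosome 17, 48997412 to 49055650, plus strand), an oncofetal protein first known for holding ACTB mRNA, also fell. It was at 55.9, 59.1 and 56.5 CPM in Ctrl Vehicle, 40.5, 46.0 and 49.2 in R4KO_1, and 44.7, 49.6 and 50.2 in R4KO_2. The knockout libraries were spread more widely than the controls but none overlapped them. Log2 fold changes were -0.33 ± 0.060 in R4KO_1, -0.24 ± 0.060 in R4KO_2 and -0.34 ± 0.043 in iR4 (edgeR adjusted p = 5.87e-05, 0.00111 and 1.37e-07). In iR4 the levels were 51.3, 49.3 and 50.2 CPM against 62.0, 66.5 and 62.9 in Vehicle. The R4KO_2 call was lost with library totals alone (-0.07, edgeR adjusted p = 0.25).

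IGF2BP3 (ENSG00000136231; chromosome 7, 23310209 to 23470467, minus strand), another oncofetal member, did not pass the test in either knockout. Levels overlapped fully: 64.0, 61.3 and 69.0 CPM in Ctrl Vehicle, 60.1, 61.8 and 67.3 in R4KO_1, and 59.7, 63.8 and 66.2 in R4KO_2. Log2 fold changes of -0.03 ± 0.054 in both were within their error (edgeR adjusted p = 0.637 and 0.613), and the R4KO_2 value became 0.14 with library totals alone (edgeR adjusted p = 0.023). In iR4 it fell, from 62.6, 59.9 and 58.0 CPM to 54.2, 56.3 and 51.4 (-0.15 ± 0.046, edgeR adjusted p = 0.00455), a call lost with library totals alone (adjusted p = 0.988). Its exons share 1521 bases (17.87% of their length) with MALSU1 on the opposite strand, so some of its count could belong to that gene.

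**Figure D2:**
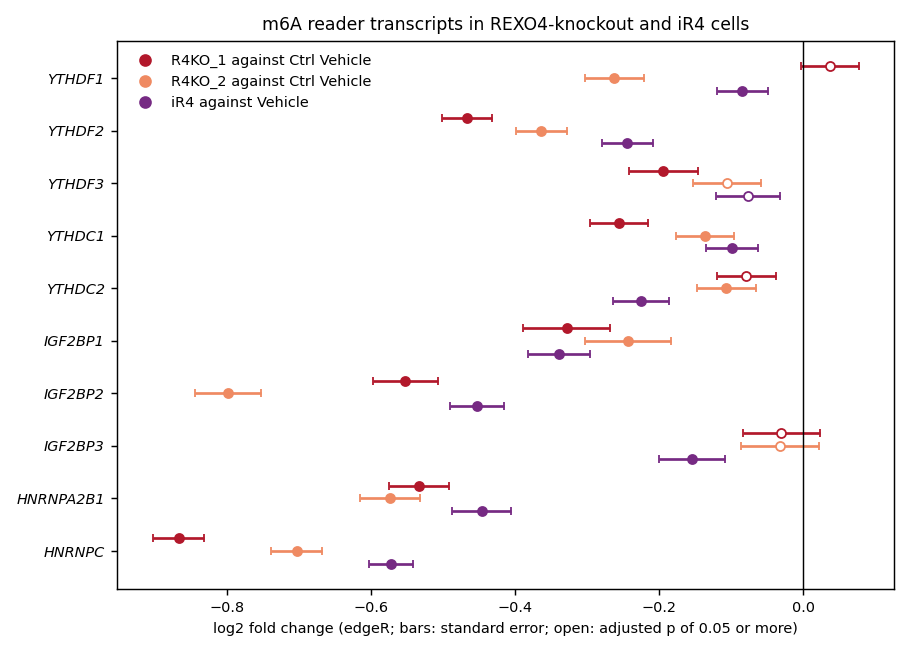
Log2 fold change (x axis) of each reader gene (y axis) in R4KO_1 and R4KO_2 against Ctrl Vehicle and in iR4 against Vehicle; bars are standard errors and open points did not pass the test. In each comparison HNRNPC, HNRNPA2B1 and IGF2BP2 lie furthest to the left, from -0.87 to -0.45. YTHDF2 reaches -0.47 in R4KO_1. When only library totals set the scale, YTHDC2 and IGF2BP3 change sign in R4KO_1. YTHDF3, YTHDC1, YTHDC2 and IGF2BP3 do so in R4KO_2, and YTHDF1, YTHDF3 and YTHDC1 in iR4.

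The 2 knockouts differed from each other in 5 readers, 3 higher and 2 lower in R4KO_2, where 15.1% of all genes were higher and 16.6% lower. Beside YTHDF1 and IGF2BP2, these were HNRNPC, with a difference of 0.16 ± 0.036 in log2 (edgeR adjusted p = 0.00125), YTHDF2 at 0.10 ± 0.035 and YTHDC1 at 0.12 ± 0.040 (edgeR adjusted p = 0.0298 and 0.0269). The YTHDF2 and YTHDC1 calls were both lost without R4KO_1 replicate 2 or 3 or R4KO_2 replicate 1, and that of YTHDF2 without R4KO_2 replicate 2, with adjusted p from 0.0556 to 0.138. Then 1 to 2 readers were called higher in R4KO_2. YTHDF3, YTHDC2, IGF2BP1, IGF2BP3 and HNRNPA2B1 were not called, with differences from -0.04 to 0.09 and adjusted p of 0.17 or more.

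How far the falls depend on scaling was measured with library totals alone, a setting chosen after seeing the data. It moves the median of all genes up to 0.17 in R4KO_1, 0.19 in R4KO_2 and 0.17 in iR4, and down to -0.15, -0.14 and -0.14 in KO_2 H151, KO_2 BX_795 and H151_iR4 against their untreated counterparts. The share of calls that were higher then moved from 51.2% to 69.4% in R4KO_1, from 51.3% to 70.8% in R4KO_2 and from 51.6% to 67.8% in iR4. It moved from 49.2% to 36.0% in KO_2 H151, from 49.5% to 37.5% in KO_2 BX_795, from 49.2% to 35.0% in H151_iR4 against iR4 and from 47.6% to 61.2% in H151_iR4 against Vehicle. On that scale 4 readers still fell in R4KO_2 and 5 in iR4, where 2895 of 14348 and 3295 of 14000 genes fell. In R4KO_1, where 2935 of 14348 genes fell, YTHDF3 lost its call and YTHDF1 was called higher. In H151_iR4 against iR4, where 3519 of 14000 genes rose, the rises of YTHDF1 and YTHDF3 were no longer called. HNRNPC, HNRNPA2B1, IGF2BP2 and YTHDF2 were called lower in all 3 comparisons under each of the 14 alternatives run.

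The next comparisons asked what inhibiting STING or TBK1 does in REXO4-knockout cells and in iR4 cells. KO_2 H151 and KO_2 BX_795 share R4KO_2 Vehicle as their reference, so their values stand side by side. That reference rests on the assumption that KO_2 and R4KO_2 are the same cells. REXO4 was higher in both treated groups than in R4KO_2, as given above. With H151, 5 readers rose and 2 fell, where 35.7% of all genes rose and 37.0% fell. With BX_795, 6 rose and 3 fell, where 36.4% rose and 37.1% fell. The median log2 fold change of the 10 readers was 0.14 with H151 and 0.15 with BX_795, against -0.01 over all genes in both. The treated libraries were also deeper than their reference, and the part of depth in these results was not tested.

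HNRNPC rose from its level in R4KO_2 to 957, 902 and 968 CPM with H151 and 873, 923 and 882 with BX_795. Every treated library lay above every R4KO_2 library and below the lowest control library. Its change in log2 was 0.61 ± 0.036 with H151 and 0.53 ± 0.036 with BX_795 (edgeR adjusted p = 1.09e-12 and 1.02e-11). Against Ctrl Vehicle the difference that remained was -0.09 ± 0.035 with H151 (edgeR adjusted p = 0.0288) and -0.17 ± 0.035 with BX_795 (edgeR adjusted p = 0.000299). The H151 value was no longer called with upper-quartile factors, library totals alone or no filter (edgeR adjusted p = 0.119, 0.178 and 0.0597), or without Ctrl Vehicle replicate 3 or KO_2 H151 replicate 2 (adjusted p = 0.126 and 0.169).

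IGF2BP2 rose to 81.7, 80.3 and 78.0 CPM with H151, and to 68.0, 69.9 and 64.0 with BX_795. Against Ctrl Vehicle the H151 level was not called different (0.05 ± 0.043, edgeR adjusted p = 0.322), and the BX_795 level was lower (-0.20 ± 0.043, edgeR adjusted p = 0.000597). The rise was 80.4% with H151 (log2 fold change 0.85 ± 0.045, edgeR adjusted p = 1.86e-13) and 51.8% with BX_795 (0.60 ± 0.045, edgeR adjusted p = 7.23e-11). The treatments differed from each other by -0.25 ± 0.042 for BX_795 against H151 (edgeR adjusted p = 0.000533). YTHDF2 reached 169, 166 and 167 CPM with H151 and 170, 170 and 171 with BX_795, levels that overlapped Ctrl Vehicle. Its log2 fold change was 0.33 ± 0.035 and 0.36 ± 0.035 against R4KO_2 (edgeR adjusted p = 2.15e-08 and 4.88e-09).

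YTHDF1 rose past the control level, to 142, 135 and 140 CPM with H151 and 147, 141 and 142 with BX_795. Its log2 fold change against R4KO_2 was 0.76 ± 0.039 and 0.80 ± 0.039 (edgeR adjusted p = 1.45e-13 and 5.3e-14), and against Ctrl Vehicle it was 0.49 ± 0.039 and 0.54 ± 0.039 (edgeR adjusted p = 8.16e-10 and 1.7e-10). These levels sat with those of the iR4 experiment: the 9 libraries of Ctrl Vehicle, R4KO_1 and R4KO_2 held 79.4 to 101 CPM and the other 15 SCC1 libraries 133 to 154. That gap was noticed in the data, and 3.18% of genes were higher in all 15 libraries than in all 9 and 3.44% lower. The KO_2 drug comparisons lie across this divide for every reader. In them, the drug and whatever else sets these 15 libraries apart cannot be told apart. Unlike YTHDF1, the other 9 readers overlapped between the same 9 and 15 libraries.

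HNRNPA2B1 rose to 1451, 1527 and 1553 CPM with H151 and 1382, 1501 and 1377 with BX_795. All 6 treated libraries stayed below all 3 controls. Its log2 fold change against R4KO_2 was 0.20 ± 0.042 with H151 (edgeR adjusted p = 0.000207) and 0.11 ± 0.042 with BX_795 (edgeR adjusted p = 0.0207), and against Ctrl Vehicle it remained at -0.38 ± 0.042 and -0.46 ± 0.042. The BX_795 value fell to -0.02 with library totals alone, and without KO_2 BX_795 replicate 2 or R4KO_2 replicate 3 it was no longer called (edgeR adjusted p = 0.15 and 0.053). With library totals alone the H151 rise was not called either (0.06, edgeR adjusted p = 0.193).

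YTHDC2 and IGF2BP3 moved the other way. YTHDC2 fell to 71.4, 70.7 and 74.1 CPM with H151 and to 66.4, 66.3 and 63.4 with BX_795, below every vehicle-treated library of that experiment (log2 fold change -0.18 ± 0.040 and -0.32 ± 0.040, edgeR adjusted p = 0.000401 and 2.92e-07). IGF2BP3 fell to 53.2, 54.0 and 53.5 CPM with H151 and to 50.5, 51.5 and 48.8 with BX_795 (-0.25 ± 0.053 and -0.34 ± 0.053, edgeR adjusted p = 0.000207 and 5.24e-06). Against Ctrl Vehicle, YTHDC2 was at -0.29 ± 0.040 and -0.43 ± 0.041, and IGF2BP3 at -0.29 ± 0.053 and -0.38 ± 0.054.

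The remaining 3 readers showed small or no changes. YTHDC1 stood at 118, 119 and 118 CPM with H151 (log2 fold change -0.01 ± 0.039, edgeR adjusted p = 0.835, but -0.15 and called lower with library totals alone) and fell to 106, 109 and 105 with BX_795 (-0.16 ± 0.040, edgeR adjusted p = 0.0012). IGF2BP1 rose to 56.1, 54.1 and 55.9 CPM with BX_795 (0.19 ± 0.058, edgeR adjusted p = 0.00607), a call lost with library totals alone or without R4KO_2 replicate 1 (adjusted p = 0.318 and 0.0543), and held 53.3, 51.0 and 51.0 with H151 (0.09 ± 0.059, edgeR adjusted p = 0.171). YTHDF3 did not pass with either drug, at 102 to 109 CPM with H151 and 99.6 to 106 with BX_795.

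Set against each other, BX_795 and H151 gave 3 readers called lower with BX_795 and 0 higher, where 3.99% of all genes were lower and 5.67% higher. Beside IGF2BP2 these were YTHDC1 at -0.15 ± 0.039 and YTHDC2 at -0.14 ± 0.040 (edgeR adjusted p = 0.0181 and 0.0282). Both of these were lost on leaving out KO_2 BX_795 replicate 1 or 3 or any 1 KO_2 H151 library, with adjusted p from 0.0516 to 0.144, which left IGF2BP2 alone. The other 7 readers lay between -0.09 and 0.10 with adjusted p of 0.187 or more. The genome-wide count went from 1387 to between 814 and 869 on leaving out these libraries. Against Ctrl Vehicle, 6 readers were lower and 1, YTHDF1, higher in KO_2 H151 (26.9% and 26.0% of all genes), and likewise 6 and 1 in KO_2 BX_795 (28.0% and 27.7%). Of the calls against Ctrl Vehicle not yet given, YTHDC1 was at -0.15 with H151 and -0.29 with BX_795, and IGF2BP1 at -0.15 with H151 (edgeR adjusted p = 0.031, and 0.0519 to 0.101 without Ctrl Vehicle replicate 2 or 3 or KO_2 H151 replicate 2 or 3).

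**Figure D3:**
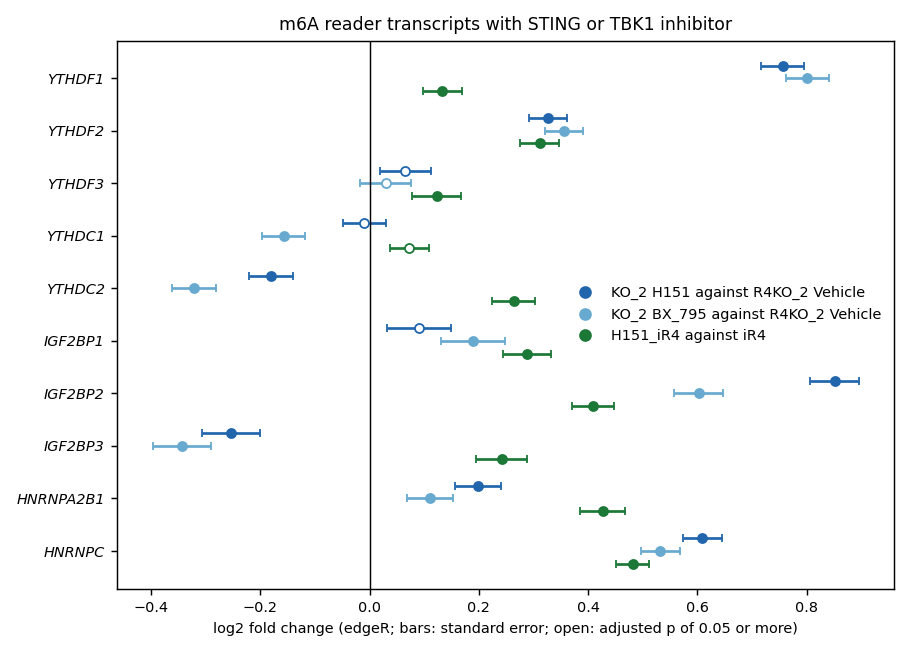
Log2 fold change (x axis) of each reader gene (y axis) with H151 or BX_795 in KO_2 cells, against R4KO_2 Vehicle, and with H151 in iR4 cells, against iR4; bars are standard errors and open points did not pass the test. YTHDC2 and IGF2BP3 lie left of 0 in KO_2 cells and right of 0 in iR4 cells, YTHDF1 rises by 0.76 and 0.80 in KO_2 cells against 0.13 in iR4 cells, and YTHDF3 in all 3 comparisons, IGF2BP1 with H151 in KO_2 cells, HNRNPA2B1 with BX_795 and YTHDC1 in iR4 cells change sign when only library totals set the scale.

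In the iR4 experiment, 9 of the 10 readers rose when H151 was added to iR4, where 35.1% of all genes rose and 36.3% fell. The median log2 fold change of the readers was 0.28 against -0.01 over all genes. HNRNPC stood at 1004, 1000 and 997 CPM in H151_iR4, HNRNPA2B1 at 1393, 1529 and 1598, IGF2BP2 at 82.5, 82.2 and 84.3 and YTHDF2 at 200, 189 and 189. None of these H151_iR4 libraries overlapped those of iR4. Log2 fold changes were 0.48 ± 0.031 for HNRNPC, 0.43 ± 0.041 for HNRNPA2B1, 0.41 ± 0.038 for IGF2BP2 and 0.31 ± 0.036 for YTHDF2 (edgeR adjusted p = 4.37e-13, 1.12e-09, 7.5e-10 and 2.76e-08).

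IGF2BP1 rose to 60.4, 61.7 and 62.6 CPM (log2 fold change 0.29 ± 0.044), YTHDC2 to 81.3, 84.1 and 80.8 (0.26 ± 0.039) and IGF2BP3 to 61.5, 64.2 and 65.8 (0.24 ± 0.046), with edgeR adjusted p of 2.31e-06, 1.83e-06 and 5.39e-05. Here too H151_iR4 and iR4 did not overlap. YTHDF1 rose to 147, 148 and 154 CPM (0.13 ± 0.035, edgeR adjusted p = 0.00174), a rise not called with library totals alone (0.003, edgeR adjusted p = 0.934). YTHDF3, at 127, 120 and 124 CPM, overlapped iR4 and passed at 0.12 ± 0.045 (edgeR adjusted p = 0.0177), but turned to -0.01 with library totals alone and was lost with upper-quartile factors (adjusted p = 0.109) and without H151_iR4 replicate 1 or iR4 replicate 1 or 2 (adjusted p = 0.0585 to 0.115). YTHDC1, at 130, 128 and 126 CPM, did not pass (0.07 ± 0.036, edgeR adjusted p = 0.074), though it did without iR4 replicate 3 (adjusted p = 0.0381).

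Against Vehicle, H151_iR4 cells differed in 1 reader, where 9.58% of all genes were lower and 8.71% higher. HNRNPC differed by -0.09 ± 0.030 in log2 (edgeR adjusted p = 0.036), and with library totals alone (adjusted p = 0.108), without any 1 of the H151_iR4 libraries, or without Vehicle replicate 2 or 3, it was no longer called (adjusted p from 0.0507 to 0.132). The other 9 readers lay between -0.05 and 0.09 with adjusted p of 0.203 or more, and a p above the threshold does not show that the levels were equal.

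The effect of H151 itself differed between iR4 and KO_2 cells for 7 readers, by a test of the difference over all 24 libraries in which 50.7% of all genes differed. It was lower in iR4 cells for YTHDF1 (-0.63 ± 0.051), IGF2BP2 (-0.45 ± 0.056) and HNRNPC (-0.14 ± 0.046), with edgeR adjusted p of 2.07e-11, 9.73e-08 and 0.0144. It was higher in iR4 cells for IGF2BP3 (0.48 ± 0.072), YTHDC2 (0.43 ± 0.054), HNRNPA2B1 (0.22 ± 0.064) and IGF2BP1 (0.19 ± 0.075), with edgeR adjusted p of 1.64e-06, 9.06e-08, 0.00538 and 0.0363. For YTHDC2 and IGF2BP3 the effects had opposite signs. Cells, design and the depth of the treated libraries all differ between the experiments, and their parts were not tested.

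Other genes of the m6A pathway were set beside the readers. These and the lists that follow were counted at TMM scaling only. Library totals alone moved the median of all genes to 0.17 in R4KO_1, 0.19 in R4KO_2 and 0.17 in iR4. The writer medians given here are near that size, and calls of these lists on that scale were not counted. Over all genes tested, 31.4% fell and 33.0% rose in R4KO_1, 32.2% and 34.0% in R4KO_2, and 34.8% and 37.1% in iR4. Of 12 writer genes, 6 fell and 2 rose in R4KO_1, 8 fell and 1 rose in R4KO_2, and 7 fell and 2 rose in iR4, with medians of -0.15, -0.20 and -0.16. METTL3, the catalytic subunit, had log2 fold changes of -0.34, -0.30 and -0.18 in these comparisons, and VIRMA, a scaffold of the writer complex, -0.25, -0.22 and -0.35. ZC3H13, which anchors the complex in the nucleus, was at -0.17, -0.20 and -0.34. Of the erasers, FTO fell in all 3 (-0.23, -0.29 and -0.59), whereas ALKBH5 was at -0.02, -0.09 and 0.02 and passed in R4KO_2 alone (edgeR adjusted p = 0.0454).

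Of 11 other proteins proposed as m6A readers, 8 fell and 0 rose in each of R4KO_1, R4KO_2 and iR4. Their medians were -0.28, -0.36 and -0.33, and 31.4%, 32.2% and 34.8% of all genes fell. SND1, a nuclease-domain protein, was at -0.71, -0.87 and -0.91, LRPPRC, which steadies mitochondrial mRNA, at -0.72, -0.79 and -0.91, and EIF3A, a translation initiation subunit, at -0.74, -0.86 and -0.74. Of 23 other hnRNP genes, 18 fell in R4KO_1, 21 in R4KO_2 and 19 in iR4, with 0, 1 and 1 rising and medians of -0.46, -0.47 and -0.40. PTBP1, a splicing repressor, fell from 845 to 404 CPM in R4KO_1 and from 977 to 505 in iR4, and SYNCRIP was at -0.88, -0.85 and -0.91.

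The machinery and clients of the readers were described the same way. In R4KO_1, R4KO_2 and iR4, 31.4%, 32.2% and 34.8% of all genes fell, and 33.0%, 34.0% and 37.1% rose. Of 15 CCR4-NOT genes and their TOB and BTG partners, 5 fell and 3 rose in R4KO_1, 4 fell and 4 rose in R4KO_2, and 7 fell and 5 rose in iR4, with medians near 0 (-0.02, -0.04 and -0.08). CNOT7, a catalytic deadenylase, fell by 0.53, 0.57 and 0.59 on the log2 scale, while BTG2, which recruits it, rose by 0.89, 0.60 and 0.42. BTG1 rose by 0.63 in iR4, fell by 0.24 in R4KO_1 and was at -0.04 in R4KO_2. Of 11 reported IGF2BP client transcripts, 10 could be tested (LIN28B had at most 1 count in a library), and 7 fell and 1 rose in R4KO_1, 8 and 0 in R4KO_2, and 7 and 0 in iR4. ACTB was at -0.76, -0.81 and -0.88, MYC at -0.51, -0.45 and -0.41, and HMGA2 at -1.10, -0.83 and -0.55. The clients were not uniform, with log2 fold changes from -1.10 to 1.60 in R4KO_1. They ran from -0.83 to 0.17 in R4KO_2 and from -0.88 to 0.01 in iR4.

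With H151 added to iR4, 20 of 23 other hnRNP genes rose and 1 fell, as did 9 and 0 of the 11 other proposed readers, 7 and 2 of the writers and 7 and 0 of the IGF2BP clients. CCR4-NOT genes again went both ways, with 6 higher and 4 lower. Of all genes tested, 35.1% rose and 36.3% fell. PTBP1 rose by 0.87, SND1 by 0.78, ACTB by 0.71 and MYC by 0.50, and BTG2 fell by 0.66. In KO_2 cells, MYC rose to 480 CPM with H151 and 449 with BX_795, above its 358 in Ctrl Vehicle, while ACTB reached 6069 and 6342 against 7888 in Ctrl Vehicle.

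**Figure D4:**
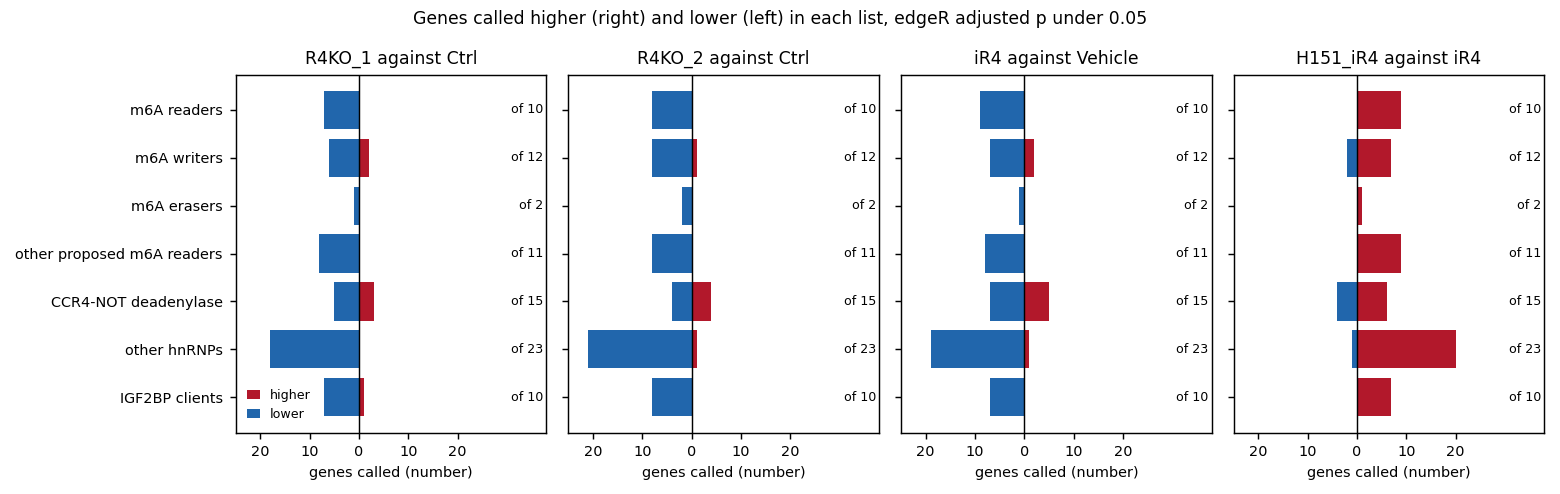
Number of genes called higher (right of 0) and lower (left of 0), on the x axis, for each gene list (y axis) in 4 comparisons, with the number tested at the right edge of each panel. The readers have 7, 8 and 9 members lower in R4KO_1, R4KO_2 and iR4 and 9 higher in H151_iR4 against iR4. With library totals alone 4 remain lower in R4KO_2 and 5 in iR4. On that scale YTHDF3 loses its call in R4KO_1, and YTHDF1 and YTHDF3 lose theirs in H151_iR4 against iR4. The other lists were drawn at TMM scaling only.

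Over the 24 libraries, each centred on the mean of its experiment, the reader transcripts fell into different patterns. Pearson's correlation of log2 CPM was 0.97 between HNRNPC and YTHDF2, 0.92 between HNRNPC and IGF2BP2, 0.88 between YTHDF2 and IGF2BP2 and 0.84 between HNRNPC and IGF2BP1. YTHDC2 and IGF2BP3 correlated at 0.88 with each other and at 0.02 and -0.15 with HNRNPC. YTHDF1 ran against them, at -0.62 with YTHDC2 and -0.70 with IGF2BP3. YTHDC2 and IGF2BP3 stood at 0.63 and 0.43 with YTHDC1 and at 0.55 and 0.37 with HNRNPA2B1. These 24 points share groups, scaling and depth, so the values are descriptions only.

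Among 10966 genes with a mean log2 CPM of at least 2, the one most like HNRNPC over the 24 libraries was SFPQ, a nuclear splicing factor, with a correlation of 0.990. The closest to HNRNPA2B1 was HNRNPD at 0.975, to YTHDF2 BCAT1 at 0.980, to IGF2BP2 the glycolytic enzyme gene ENO1 at 0.973 and to YTHDF1 PDRG1 at 0.981. For YTHDC2 it was RAPGEFL1 (0.961), for IGF2BP1 SSU72 (0.939), for IGF2BP3 TRIM24 (0.938), for YTHDC1 CIP2A (0.926) and for YTHDF3 LARP4 (0.859). The likeness of YTHDF1 and PDRG1 was 0.988 within the knockout experiment and 0.621 within the iR4 experiment, while that of HNRNPC and SFPQ was 0.992 and 0.986.

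**Figure D5:**
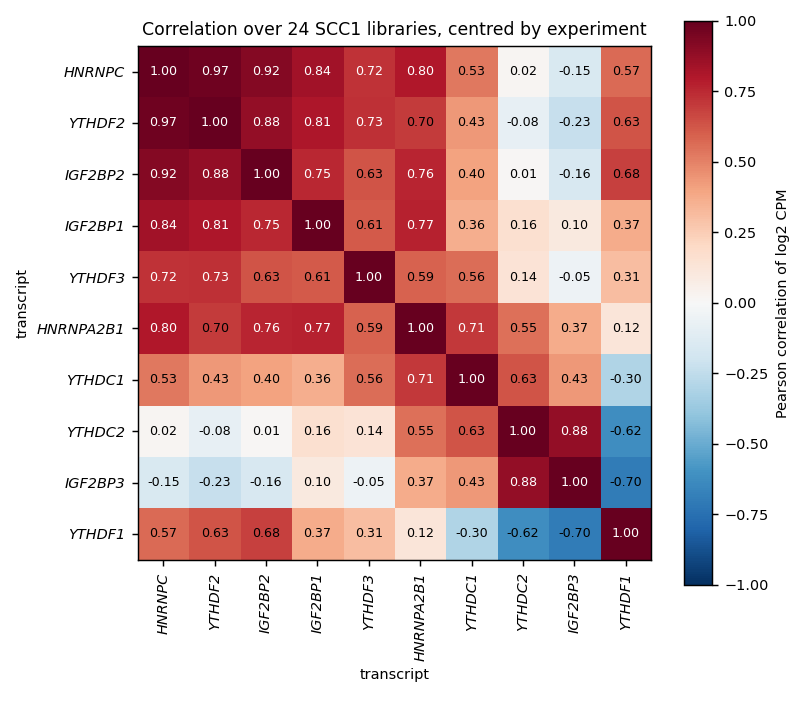
Pearson correlation of log2 CPM between reader transcripts (both axes) over the 24 SCC1 libraries, centred within each experiment; red is positive, blue negative, and each cell prints its value. HNRNPC, YTHDF2 and IGF2BP2 form a block at 0.88 to 0.97, and YTHDC2 with IGF2BP3, at 0.88, stands apart from that block.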

How the data were processed

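The authors deposited 1 file of raw counts per library, with Ensembl IDs and symbols per the file headers. Per the labels' protocols, RNA was enriched with oligo(dT) beads and primed with random hexamers. The submitters' processing notes name HISAT2 2.2.1 and featureCounts 2.0.1 beside FastQC 0.11.9, DESeq2 1.42.0 and Trim Galore 0.6.4, and list hg38 and mm10 as builds. The sources used here name no annotation or strand setting. An ID listed under several symbols was used once. The 4 mouse libraries were not used.

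Genes were kept by filterByExpr (minimum count 10) and scaled by TMM. Comparisons used edgeR's quasi-likelihood F test (edgeR 4.0.16 under R 4.3.3), with Benjamini-Hochberg adjustment over every gene tested and 0.05 as the threshold. The 15 knockout and 9 iR4 libraries were fitted apart, and all 24 together for differences between experiments, with 14348, 14000 and 14585 genes. Levels are CPM scaled by TMM over all 24 libraries. Positions and exon lengths are from GENCODE on GRCh38. Alternatives were RLE and upper-quartile factors, library totals alone (chosen after seeing the data), DESeq2 1.42.0, no filter, a filter of 1 CPM in 3 libraries, the replicate number as a block, only the groups compared, and leaving out each library. For some of the comparisons, the tests were also run on simulated counts with 200 genes changed in random directions. Many more genes were called in each real comparison, so that run cannot check how calls depend on scaling.

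All 10 members are reported in every comparison, in some by range where not called; of the other lists, the 2 genes with the lowest p in R4KO_1 and in iR4; and for each member the most correlated gene. Members and lists were chosen with earlier results of these data known.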

Additional observations from a re-analysis of the deposited data

Results flagged for a closer look

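Of the differences between effects measured in both experiments, 14 for reader genes passed edgeR's test of the difference itself. The iR4 effect minus the R4KO_1 effect was 0.23 for YTHDF2, 0.16 for YTHDC1, -0.14 for YTHDC2 and 0.30 for HNRNPC on the log2 scale. Against R4KO_2 it was 0.18 for YTHDF1, 0.34 for IGF2BP2 and 0.13 for HNRNPC. The effect of H151 in iR4 cells minus that in KO_2 cells was -0.63 for YTHDF1, 0.43 for YTHDC2, 0.19 for IGF2BP1, -0.45 for IGF2BP2, 0.48 for IGF2BP3, 0.22 for HNRNPA2B1 and -0.14 for HNRNPC. The readers not called lay between -0.12 and 0.12 (adjusted p of 0.0813 or more), between -0.12 and 0.13 (0.0854 or more) and between -0.02 and 0.07 (0.244 or more) in these 3 sets. The share of all genes that passed the same 3 tests was 35.0%, 20.3% and 50.7%. Of these 14, the values for YTHDC2 against R4KO_1 (edgeR adjusted p = 0.0434) and for HNRNPC against R4KO_2 (adjusted p = 0.0456) lay nearest the threshold and were lost under most alternatives, with adjusted p up to 0.188 and 0.12. The YTHDC1 value was lost with no filter (adjusted p = 0.0603) and without iR4 replicate 3 or R4KO_1 replicate 3 (0.0501 and 0.0558). The YTHDF1 value against R4KO_2 was lost without Ctrl Vehicle replicate 1, iR4 replicate 3 or R4KO_2 replicate 3 (0.052 to 0.0586). For H151, IGF2BP1 was lost with no filter (0.0763) and without either of replicates 2 and 3 of H151_iR4, iR4, KO_2 H151 or R4KO_2 (0.0571 to 0.105), and HNRNPC without KO_2 H151 replicate 3 (0.0501).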

How the results depend on the processing

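Over 14 comparisons and 10 readers, 139 of 140 results kept their direction and side of the threshold with DESeq2, 138 with RLE factors, 140 with the filter of 1 CPM, 130 with upper-quartile factors, 129 with no filter and 108 of 110 with only the groups compared in the fit. Leaving out 1 library kept 938 of 1020, and no sign of a called value turned under any of these. Library totals alone kept 117 of 140 and turned 18 signs, 11 of them of results called on neither scale and 7 with a call on either: in R4KO_2 against Ctrl, YTHDC1 to 0.033, YTHDC2 to 0.063 and IGF2BP3 to 0.14; in KO_2 BX_795 against R4KO_2, HNRNPA2B1 to -0.016; in iR4 against Vehicle, YTHDF1 to 0.069 and YTHDC1 to 0.054; in H151_iR4 against iR4, YTHDF3 to -0.0065. On that scale 1 reader was higher in R4KO_1 (YTHDF1) and 1 in R4KO_2 (IGF2BP3), 4 were lower in R4KO_2, 5 in iR4 and 0 in H151_iR4 against Vehicle, and 0 fell further in iR4 than in R4KO_1.

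The number of readers higher in R4KO_2 than in R4KO_1 was 1 with upper-quartile factors, no filter or only the groups compared, and 1 to 3 without 1 library. Readers lower with BX_795 than H151 numbered 1 to 3 without 1 library, and the genes called there went from 1387 to 2653 with only the groups compared and to between 814 and 1015 without 1 library. Without 1 library, 0 to 1 readers were lower in H151_iR4 than in Vehicle, and 1 to 3 had a higher effect in iR4 than in R4KO_2. Readers with a lower effect in iR4 than in R4KO_1 numbered 2 with upper-quartile factors, 0 with DESeq2 or no filter and 0 to 2 without 1 library. The cause of these changes was not tested, beyond the fewer libraries in some fits.

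Same-numbered replicates did not deviate together (lowest correlation -0.07, no pair of groups with all 3 above 0.1), so the numbers were not used to pair libraries. With the replicate block, 137 of 140 results were the same. YTHDF3 in R4KO_2 gained its call (adjusted p = 0.0437), HNRNPC in iR4 minus R4KO_2 lost it (adjusted p = 0.0561), and YTHDC2 in iR4 minus R4KO_1 lost it (adjusted p = 0.0538), which left 0 readers there. Depth was 16.04 M to 27.94 M counts a library, and IGF2BP2 held at least 818 counts in each.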
